A study of Mus musculus with 34 samples.

Results

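The genes described here are 9 structural genes of the sperm tail, namely Odf1, Odf2, Akap3, Fsip2 and Tekt1 to Tekt5, out of 21887 protein-coding genes of the mouse chromosomes 1 to 19, X and Y. They were chosen by name. For each gene, the open and nucleosome-sized intervals that overlapped the gene itself or the 1000 bp beyond either of its ends were taken from 24 deposited lists made by ATAC-seq, an assay in which the Tn5 transposase inserts adapters into exposed DNA. Of each pair of lists, one holds nucleosome calls and the other subnucleosome peaks, which mark short stretches of open DNA.

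The study's 34 libraries form 12 groups, from 4 stages of sperm formation in 3 kinds of mice. MS stands for the meiotic cells, RS for round spermatids, ES for spermatids that were elongating or condensing, and Sp for mature sperm, taken from the cauda epididymis. The cKO mice are C57BL6 and GCN5-/-, with homozygous floxed alleles of Gcn5, a histone acetyltransferase, and a Stra8-CRE transgene, and they gave 2 libraries at each stage. Stra8 is switched on in male germ cells as they approach meiosis, so the deletion is one of germ cells and not of the whole animal. The SV129 mice carry intact Gcn5, were 8 to 12 weeks old, were pooled by 11 for each collection, and gave 4 libraries at MS, RS and ES, as 2 biological replicates run in technical repeats, and 6 at Sp. The WT mice are C57BL6 and GCN5+/+ and gave 2 libraries at each stage; whether they carry the floxed alleles or the Cre, and the ages of the C57BL6 mice, are not given in the sources used here. Each group has 1 list of each class, with no values per library, so no spread between replicates can be given and no test was run on any difference below. The lists hold no transcript levels, so the loss of Gcn5 was not checked here.

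The sperm tail is built around an axoneme of microtubules. Outer dense fibres run alongside it, and a fibrous sheath surrounds both over most of the tail's length. Tektins are filament proteins that sit inside or along the microtubule doublets of cilia and flagella. Many of these parts are made and assembled after meiosis, in spermatids, before the nucleus condenses and histones give way to protamines.

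The lists differ in length, and counts at the genes are therefore set beside the share of all genes counted in the same way. At MS the subnucleosome lists hold 16087 peaks in cKO, 33060 in SV129 and 35822 in WT, and at RS they hold 4075 in cKO, 29243 in SV129 and 56480 in WT. At ES they hold 473 to 787 peaks, and at Sp 1127 in cKO, 10715 in SV129 and 3024 in WT. The nucleosome lists hold 199111 to 591189 calls at MS, RS and ES in all 3 backgrounds; at Sp they hold 347951 calls in cKO, 13615 in SV129 and 8628 in WT. All 5 meiotic marker genes tested (Sycp1, Sycp3, Spo11, Dmc1 and Hormad1) had a subnucleosome peak in each MS list. Of 5 spermatid genes (Prm1, Prm2, Tnp1, Tnp2 and Acrv1), 0 had a peak in cKO RS, 5 in SV129 RS and 4 in WT RS, and of the 5 meiotic genes 1 had one in cKO RS, against 5 in SV129 RS and 5 in WT RS. Of 20 marker genes of Sertoli cells, Leydig cells, blood and epididymis, between 0 and 4 had a subnucleosome peak in any list. Depth per list is unknown. List length was examined only by shortening the WT peak lists by score, as given below, and its part in the other results was not tested.

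Open sites at the sperm tail genes were found in meiotic cells and round spermatids of mice with intact Gcn5, at fewer of the genes in meiotic cells of cKO mice and at none in cKO round spermatids, in none of the elongating spermatid lists, and in mature sperm of SV129 mice alone. At MS, 4 of the 9 genes had a subnucleosome peak in cKO, 7 in SV129 and 7 in WT, where 44.9%, 60.5% and 63.4% of all genes had one in the same lists. At RS, 0 of 9 had a peak in cKO, 8 in SV129 and 9 in WT, against 14.9%, 55.8% and 64.1% of all genes. At ES, 0 of 9 had a peak in cKO, SV129 or WT, where 0.535%, 0.964% and 0.507% of all genes had one. At Sp, 0 of 9 had a peak in cKO, 3 in SV129 and 0 in WT, against 4.15%, 31.6% and 11.6% of all genes. All 9 genes that had a peak in WT RS lacked one in WT ES, as did 99.2% of all genes with a WT RS peak, and all 8 in SV129 RS lacked one in SV129 ES, as did 98.4%.

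**Figure D1:**
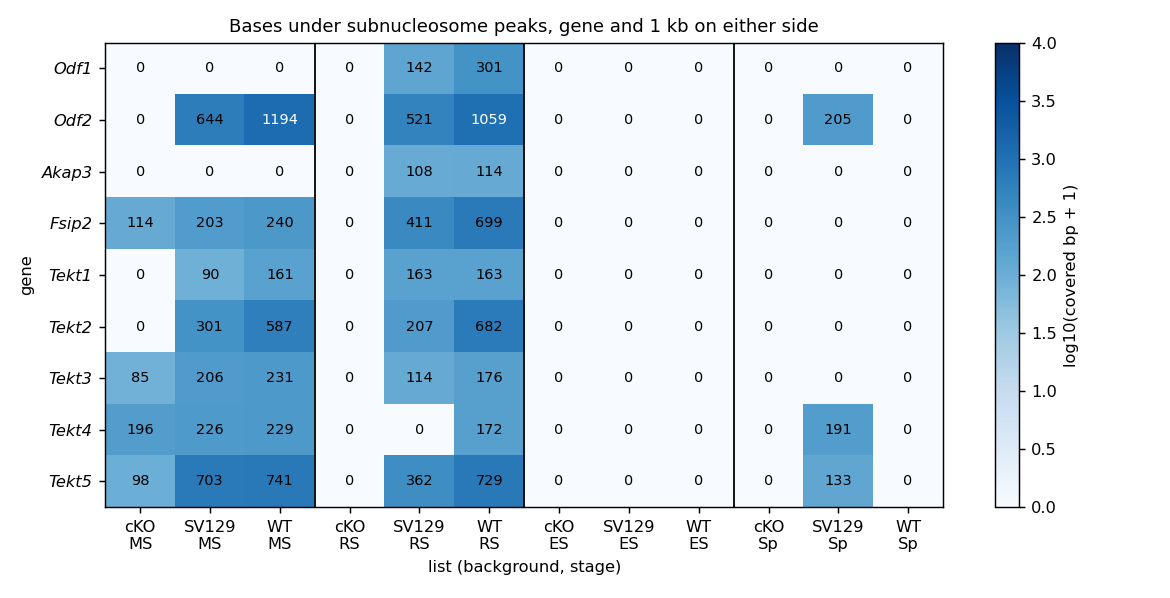
Bases under subnucleosome peaks in each gene and the 1 kb beyond either end, for the 9 sperm tail genes in each of the 12 subnucleosome lists, 1 list per group; numbers are bp and the shade is log10(bp + 1). At RS every gene is at 0 in cKO, and at ES every gene is at 0 in all 3 backgrounds.

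The 66 peaks at the 9 genes fell into 23 separate regions, joined where peaks overlapped by 1 bp or more. In 8 of the genes a region lay over an annotated start, in Odf1, whose strand and start were not matched, a region lay over the lower-coordinate end, and 16 of the 23 regions lay wholly inside a gene's annotated span. Peaks far inside the gene were seen in Odf2 (13792 bp from the first start), Fsip2, Tekt1 and Tekt5. Of the 23 regions, 10 were present in 3 or more lists and 7 in a single list. Median peak width at the genes was 106 bp in cKO MS, 166 bp in SV129 MS and 175 bp in WT MS, beside 149, 148 and 178 bp over the whole of those lists.

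**Figure D2:**
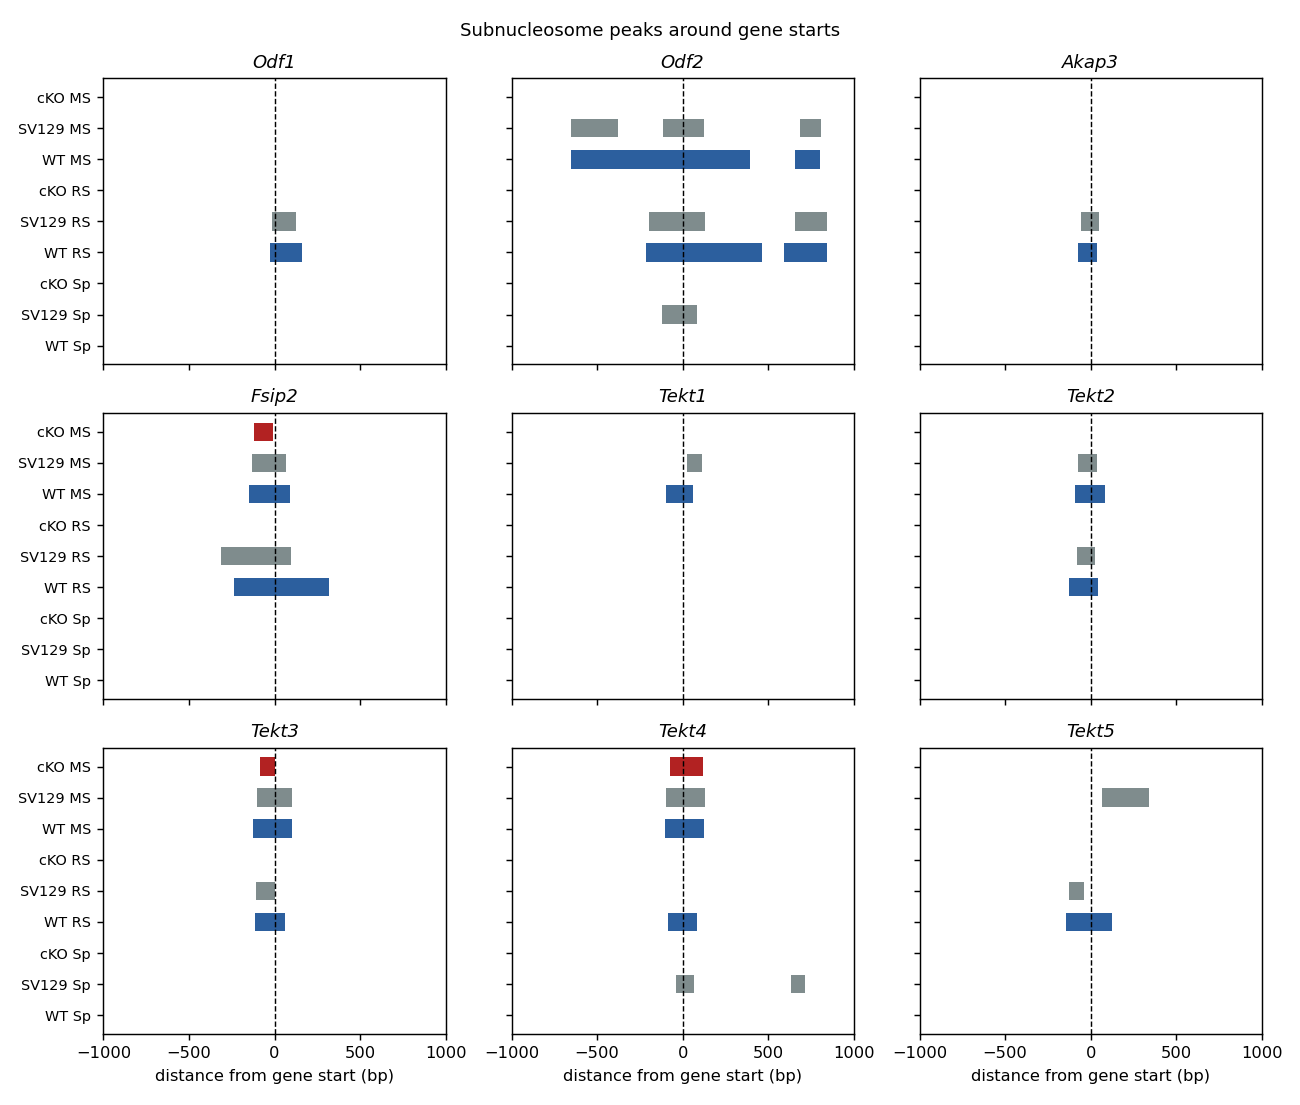
Subnucleosome peaks (bars) within 1000 bp of the annotated start of the 9 genes, in bp in the direction of transcription (from the lower-coordinate end for Odf1), for the MS, RS and Sp lists; the ES lists have none and peaks further inside a gene are not drawn. In cKO, bars are present at MS in Fsip2, Tekt3 and Tekt4 alone, and at Tekt1 no list has a bar at RS.

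The outer dense fibre genes differed in the stages at which they had peaks. Odf1 encodes a major outer dense fibre protein, and its span in RefSeq GRCm38 is chr15:38219203-38226735. It had no peak at MS in any background. At RS it had 0 bp under peaks in cKO, 142 bp in SV129 and 301 bp in WT. The shared site covered the lower-coordinate end of the gene, at chr15:38219190-38219331 in SV129 and chr15:38219174-38219363 in WT, and a further WT peak lay inside the gene, 1510 to 1620 bp from that end. Among the 12 lists, a peak at Odf1 was thus found in those of round spermatids with intact Gcn5 and in no other.

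Odf2 (chr2:29889014-29931746) encodes an outer dense fibre protein that is also a component of centriole appendages in other cells. At MS it had 0 bp under peaks in cKO, 644 bp in SV129 and 1194 bp in WT, and at RS 0 bp in cKO, 521 bp in SV129 and 1059 bp in WT. The main region spans 1116 bp, contains all 4 annotated starts of Odf2, and was held by 5 lists, those of SV129 and WT at MS and RS and that of SV129 Sp. In WT MS it was a continuous peak of 1046 bp, whereas SV129 MS had separate peaks of 273 and 246 bp there. In SV129 Sp a peak of 205 bp lay over the first start. The promoter windows at the 4 starts, each 300 bases long, had 26 to 43 CpG dinucleotides, more than 77.4% to 96.7% of the 21263 promoter windows in RefSeq GRCm38.p6.

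The fibrous sheath genes Akap3 and Fsip2 contrasted with each other. Akap3 (chr6:126853098-126874308) encodes an A-kinase anchoring protein of the fibrous sheath. Like Odf1 it had no peak at MS in any background, and at RS it had 0 bp in cKO, 108 bp in SV129 and 114 bp in WT. The WT peak reached from 74 bp upstream to 39 bp downstream of the start, and the SV129 peak from 59 bp upstream to 48 bp downstream. Odf1 and Akap3 were the 2 genes of the 9 with a peak at RS and none at MS in both SV129 and WT, a pattern that 2.34% of all genes had. Of all genes without a peak at MS, 13.5% had one at RS in SV129 and 18.9% in WT.

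Fsip2 (chr2:82943634-83008937) encodes a large fibrous sheath interacting protein whose loss in humans is a known cause of malformed sperm tails. At MS it had 114 bp under a peak in cKO, 203 bp in SV129 and 240 bp in WT. At RS it had 0 bp in cKO, 411 bp in SV129 and 699 bp in WT. The start site widened between stages in both backgrounds with intact Gcn5. It reached 132 bp upstream at MS and 311 bp at RS in SV129, and its downstream reach was 88 bp at MS and 321 bp at RS in WT. In cKO MS the peak ended 6 bp before the annotated start. WT RS had a second peak 44560 to 44700 bp inside the gene that SV129 RS lacked.

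The 250 bases before the starts of these fibrous sheath genes are shown because their peaks were found at different stages and their base composition differs. They are from RefSeq, build GRCm38.p6, written 5′ to 3′ on the gene's strand. Capitals mark the bases under the WT peak, at RS for Akap3 and at MS for Fsip2.
Akap3 (chr6:126852848-126853097, plus strand): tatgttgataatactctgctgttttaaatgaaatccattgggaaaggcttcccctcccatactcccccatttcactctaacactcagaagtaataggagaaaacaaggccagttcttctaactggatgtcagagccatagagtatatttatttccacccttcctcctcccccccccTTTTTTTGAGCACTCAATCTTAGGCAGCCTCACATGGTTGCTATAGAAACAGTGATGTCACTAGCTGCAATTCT
Fsip2 (chr2:82943384-82943633, plus strand): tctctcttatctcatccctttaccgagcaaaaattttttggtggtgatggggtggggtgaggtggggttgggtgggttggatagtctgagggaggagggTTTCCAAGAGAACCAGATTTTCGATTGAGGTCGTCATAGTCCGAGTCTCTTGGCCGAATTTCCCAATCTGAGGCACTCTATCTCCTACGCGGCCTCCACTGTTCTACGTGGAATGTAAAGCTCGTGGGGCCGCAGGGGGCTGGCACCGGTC
In the 300-base windows that add the first 50 transcribed bases, Akap3 had 0 CpG dinucleotides and 45.3% G+C, and Fsip2 had 14 CpG dinucleotides and 55.0% G+C. Over all promoters, those whose 300 bases had a peak at RS and none at MS in both SV129 and WT had a median of 5 CpG dinucleotides (370 promoters), and those with a peak at both stages had a median of 24 (7014 promoters). Promoters with no peak at either stage had a median of 4 (10456 promoters), and all promoters had a median of 13. A low CpG count was thus not particular to promoters with a peak at RS alone. Both Akap3 and Tekt5, whose SV129 MS peak begins 67 bp downstream and so past the window, fell in the first of these classes, and Odf2, Fsip2, Tekt2 and Tekt3 in the second. Tekt1 and Tekt4 fell in neither the first nor the second.

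Unlike Odf1 and Akap3, the tektin genes had peaks at MS: each of the 5 had a peak in SV129 MS and in WT MS. In Tekt5 the WT MS peaks all lay inside the gene, 2456 bp or more from the start. The tektin genes differed from one another in cKO MS, where Tekt3, Tekt4 and Tekt5 had a peak and Tekt1 and Tekt2 had none. The bases before their starts are shown because these genes differ from one another in cKO MS. In addition, each of the 5 carries GTTGCC or GTTGCTA in a promoter window. Sequences are from RefSeq GRCm38.p6, 5′ to 3′ on the gene's strand, and capitals mark bases under the WT MS peak, except for Tekt5, where they mark bases under the WT RS peak.
Tekt1 (chr11:72361883-72362132, minus strand): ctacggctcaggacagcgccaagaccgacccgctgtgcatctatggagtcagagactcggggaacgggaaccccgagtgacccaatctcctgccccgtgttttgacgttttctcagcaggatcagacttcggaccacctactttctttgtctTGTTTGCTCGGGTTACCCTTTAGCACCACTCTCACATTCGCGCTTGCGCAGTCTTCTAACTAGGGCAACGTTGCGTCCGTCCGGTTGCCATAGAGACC
Tekt2 (chr4:126325689-126325938, minus strand): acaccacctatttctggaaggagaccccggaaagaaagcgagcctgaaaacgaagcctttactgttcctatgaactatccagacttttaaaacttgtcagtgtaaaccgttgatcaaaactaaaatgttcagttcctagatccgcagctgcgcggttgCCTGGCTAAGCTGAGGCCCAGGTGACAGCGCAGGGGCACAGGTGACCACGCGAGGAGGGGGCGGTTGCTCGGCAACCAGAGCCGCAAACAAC
Tekt3 (chr11:63061409-63061658, plus strand): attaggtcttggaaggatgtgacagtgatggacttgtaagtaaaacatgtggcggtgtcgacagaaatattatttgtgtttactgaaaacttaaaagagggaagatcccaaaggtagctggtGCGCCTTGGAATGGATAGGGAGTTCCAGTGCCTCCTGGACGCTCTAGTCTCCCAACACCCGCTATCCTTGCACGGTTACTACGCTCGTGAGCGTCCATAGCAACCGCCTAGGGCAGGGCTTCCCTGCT
Tekt4 (chr17:25471340-25471589, plus strand): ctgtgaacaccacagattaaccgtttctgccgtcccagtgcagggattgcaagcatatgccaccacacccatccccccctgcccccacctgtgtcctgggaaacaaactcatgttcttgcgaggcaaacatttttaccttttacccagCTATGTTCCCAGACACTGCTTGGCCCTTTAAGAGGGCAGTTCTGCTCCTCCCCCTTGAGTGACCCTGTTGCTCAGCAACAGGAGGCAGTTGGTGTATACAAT
Tekt5 (chr16:10395456-10395705, minus strand): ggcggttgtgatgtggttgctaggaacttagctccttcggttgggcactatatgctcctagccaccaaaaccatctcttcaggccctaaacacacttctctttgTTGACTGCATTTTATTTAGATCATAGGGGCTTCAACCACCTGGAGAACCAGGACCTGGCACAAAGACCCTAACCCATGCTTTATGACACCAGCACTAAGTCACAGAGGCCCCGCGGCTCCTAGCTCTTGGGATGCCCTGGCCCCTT
The motif searched was GTTGCC or GTTGCTA on either strand, which are letters of an arm of the X-box, the element bound by RFX factors at genes of cilia. Either string was present in a promoter window of 6 of the 8 genes with a promoter entry, namely Akap3 and the 5 tektins, and in 17.6% of 17492 genes. No single string was in all of these: GTTGCC was in Tekt1, Tekt2 and Tekt4, and GTTGCTA in Akap3, Tekt3 and Tekt5. Over all windows, 12.6% had GTTGCC and 3.68% had GTTGCTA. The strings were chosen with earlier results of these data known. In Tekt3 the match lay 31 bp upstream of the start, under the peaks of 5 lists, cKO MS among them. In Tekt4 it lay 8 bp downstream of the start, just past the sequence shown, and was likewise under peaks of 5 lists. In Tekt2 a match 22 bp upstream was under the SV129 and WT peaks at both MS and RS. In Tekt1 the matches 15 and 35 bp upstream were under the WT MS peak alone. In Akap3 the match 38 bp upstream was under the RS peaks of SV129 and WT, and in Tekt5 the match 235 bp upstream was under no peak. TGACGTCA, the full cAMP response element, was in none of the 8 genes' windows and in 2.23% of all windows. TATAAA was in none of them and in 12.6% of all windows. CAGTTG, a motif of MYB factors, was in the windows of Tekt1 and Tekt4 and in 12.5% of all. TGACG was in those of Odf2, Fsip2 and Tekt1 and in 23.6% of all, and GGGCGG was in those of Odf2 and Tekt2 and in 46.2% of all. TGACG is part of TGACGTCA. These matches describe letters only.

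Tekt1 (chr11:72344717-72362442, minus strand) had 0 bp under peaks in cKO MS, 90 bp in SV129 MS and 161 bp in WT MS, and 0 bp in cKO RS, 163 bp in SV129 RS and 163 bp in WT RS. The equal amounts at RS came from another place. At MS the peak lay at the start at chr11:72361882, reaching 98 bp upstream of it in WT and lying 27 to 116 bp downstream of it in SV129, while at RS it lay inside the gene, centred 6185 bp from the nearest start in SV129 and 6113 bp in WT. The start was without a peak in every RS list. Tekt1 encodes a tektin of sperm flagella and motile cilia, and the noncoding gene Gm34317 has an end within 1 kb of the start site.

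Tekt2 (chr4:126322121-126325688, minus strand), a tektin needed for normal movement of mouse sperm tails, had 0 bp in cKO MS, 301 bp in SV129 MS and 587 bp in WT MS. At RS it had 0 bp in cKO, 207 bp in SV129 and 682 bp in WT. Much of this lay at the other end of the gene. The region there, at chr4:126321275-126321851, contains the annotated start of the neighbour Adprhl2, at chr4:126321703. In WT it held peaks of 260 and 152 bp at MS and of 512 bp at RS, most of the Tekt2 total. In SV129 it held peaks of 102 and 89 bp at MS and of 103 bp at RS. At the Tekt2 start itself the WT peak was 175 bp wide at MS and 170 bp at RS, and the SV129 peak 110 bp and 104 bp.

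Tekt3 (chr11:63061659-63094960), a tektin of the sperm flagellum, had a single region, over its start. It had 85 bp under a peak in cKO MS, 206 bp in SV129 MS and 231 bp in WT MS, and 0 bp in cKO RS, 114 bp in SV129 RS and 176 bp in WT RS. The cKO MS peak reached from 84 bp upstream to the start and no further, whereas both the SV129 MS and the WT MS peak reached 102 bp downstream.

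Tekt4 (chr17:25454549-25476602), whose loss in mice impairs sperm movement, had, at MS, 196 bp in cKO, 226 bp in SV129 and 229 bp in WT. At RS it had 0 bp in cKO, 0 bp in SV129 and 172 bp in WT, and was the only gene of the 9 with a peak in WT RS and none in SV129 RS. Of all genes with a WT RS peak, 15.2% lacked one in SV129 RS. In SV129 Sp the start was covered again by a peak of 107 bp, beside a second of 84 bp that lay 635 to 718 bp downstream and was in no other list. The start with a promoter entry, at chr17:25471590, lies well inside the annotated span of the gene.

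Tekt5 (chr16:10357952-10395455, minus strand), a tektin of the sperm tail, had 8 regions spread over the gene. It had 98 bp in cKO MS, 703 bp in SV129 MS and 741 bp in WT MS, and 0 bp in cKO RS, 362 bp in SV129 RS and 729 bp in WT RS. The site held by most lists lay near the far end of the gene, at chr16:10358042-10358251, in SV129 and WT at MS and RS and in SV129 Sp. The cKO MS peak lay at another site, 20571 to 20668 bp inside the gene, that SV129 MS, WT MS and WT RS also held. At the start, WT had a peak at RS, 273 bp wide, and none at MS. SV129 had a peak 67 to 340 bp downstream of it at MS and one 41 to 124 bp upstream at RS. Near the start, SV129 and WT thus differed in stage, although both had peaks in the gene at both stages.

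Between the genotypes at MS, 3 of the 7 genes with a WT peak lacked one in cKO (Odf2, Tekt1 and Tekt2), as did 29.6% of all genes with a WT MS peak. SV129 lacked 0 of the 7, and 8.53% of all. At RS, 9 of 9 lacked a peak in cKO, beside 76.7% of all genes with a WT RS peak, and SV129 lacked 1 of 9. Peaks at both MS and RS in both SV129 and WT were present at 6 of the 9 genes (Odf2, Fsip2, Tekt1, Tekt2, Tekt3 and Tekt5) and at 48.8% of all genes. All 493 bp under cKO MS peaks at the 9 genes were also under WT MS peaks, where they made up 14.6% of the WT bases. At MS, SV129 shared 1997 bp with WT, which was 84.2% of the SV129 and 59.0% of the WT bases at these genes. Over all genes, cKO and WT shared 96.6% of the cKO and 35.4% of the WT bases at MS, and SV129 and WT shared 85.7% of the SV129 and 63.5% of the WT bases.

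The genes with a cKO peak at MS were those with the higher scores in WT. The deposited score of the highest WT MS peak was 53.7 at Tekt4, 48.8 at Tekt3, 41.7 at Tekt5 and 33.7 at Fsip2, the genes with a cKO peak over it. It was 32.1 at Tekt1, 31.3 at Tekt2 and 29.2 at Odf2, the genes with none. All WT MS peaks were then ranked into 10 classes of about equal size by score, class 10 holding the highest. The share with an overlapping cKO peak was 98.8% in class 10, with Tekt4, and 89.7% in class 9, with Tekt3 and Tekt5. It was 73.0% in class 8, with Fsip2, and 54.8% in class 7, with Tekt1, Tekt2 and Odf2. At RS the highest WT scores were 57.3 at Fsip2, 43.9 at Odf1, 38.2 at Odf2, 37.1 at Tekt3, 30.0 at Akap3, 29.3 at Tekt4, 26.1 at Tekt2, 25.8 at Tekt5 and 19.3 at Tekt1. Of the WT RS peaks in class 10, with Fsip2, 43.5% had an overlapping cKO peak. That share was 16.7% in class 9, with Odf1, Odf2 and Tekt3, 6.04% in class 8, with Akap3 and Tekt4, 2.32% in class 7, with Tekt2 and Tekt5, and 0.897% in class 6, with Tekt1. When the WT RS list was shortened by score to the 4075 peaks of the cKO list, 1 gene of the 9, Fsip2, kept a peak, against 9 with the whole list. The WT MS list shortened to the 16087 peaks of cKO kept all 7. The share of all genes that kept a peak in the shortened lists was not computed.

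**Figure D3:**
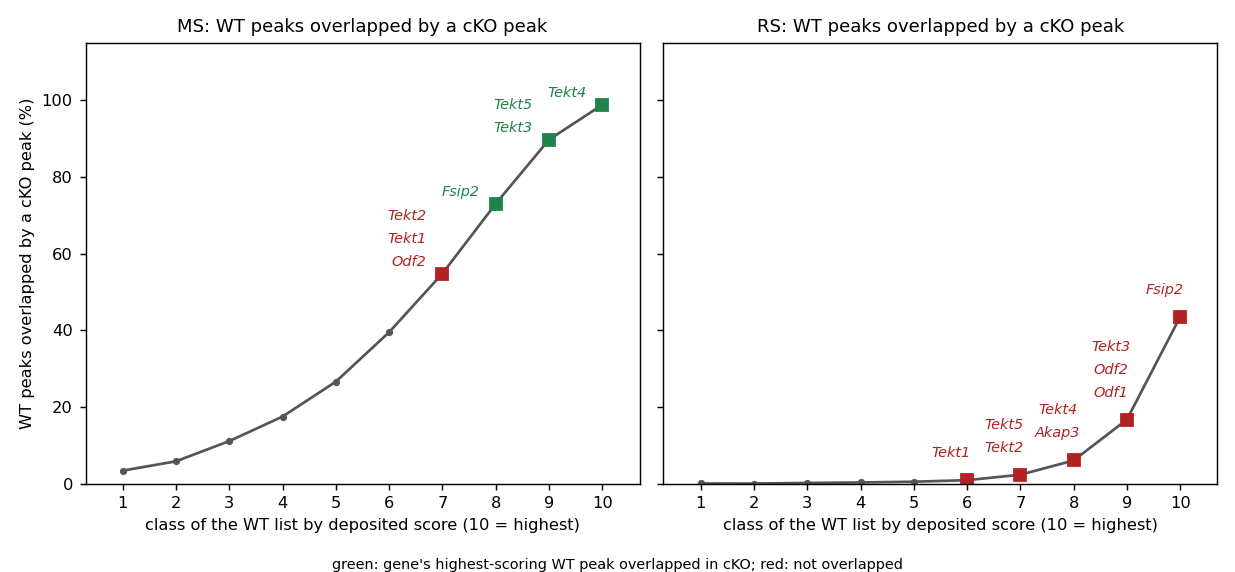
Share of WT subnucleosome peaks overlapped by a cKO peak, by class of deposited WT score (1 lowest, 10 highest), at MS and RS over the whole lists, with the sperm tail genes placed at the class of their highest WT peak (green where a cKO peak overlaps it, red where none does). At MS the 3 genes without a cKO peak lie in class 7 and the 4 with one lie above it; at RS none of the 9 has one.

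Nucleosome calls were present at most of the genes at MS, RS and ES and, in mature sperm, mainly in cKO. At MS, 7 of the 9 genes had a call in cKO, 8 in SV129 and 9 in WT, against 73.2%, 65.1% and 75.1% of all genes. At RS the counts were 6 in cKO, 8 in SV129 and 8 in WT, against 63.9%, 68.4% and 63.1% of all genes. At ES they were 8, 9 and 8 in cKO, SV129 and WT, against 78.5%, 78.9% and 80.3%. At Sp, 7 genes had a call in cKO, 0 in SV129 and 2 in WT, against 71.7%, 10.4% and 8.79% of all genes. Of the 20 marker genes of other cell types, 13 had a call in cKO Sp, 0 in SV129 Sp and 0 in WT Sp, beside the same shares of all genes. Calls at these markers were not particular to cKO Sp. In the MS, RS and ES lists they ranged from 4 genes in SV129 MS to 19 in WT ES, with 13 in WT MS. With this window, the counts at the sperm tail genes lay above the share of all genes in every list but SV129 Sp, which had 0 of 9. They were closest to that share in cKO at MS, RS and Sp. In these lists, and in cKO and WT at ES, a single gene fewer would put the count below it. Counted only within 1 kb of the ends, cKO RS lay below the share, with 3 of 9 against 37.9%. The counts were furthest above the share in WT MS (9 of 9 against 75.1%), SV129 MS (8 of 9 against 65.1%) and WT RS (8 of 9 against 63.1%). Gene length was not matched. These differences were not tested, nor was the part of list length or of other cells in the counts.

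**Figure D4:**
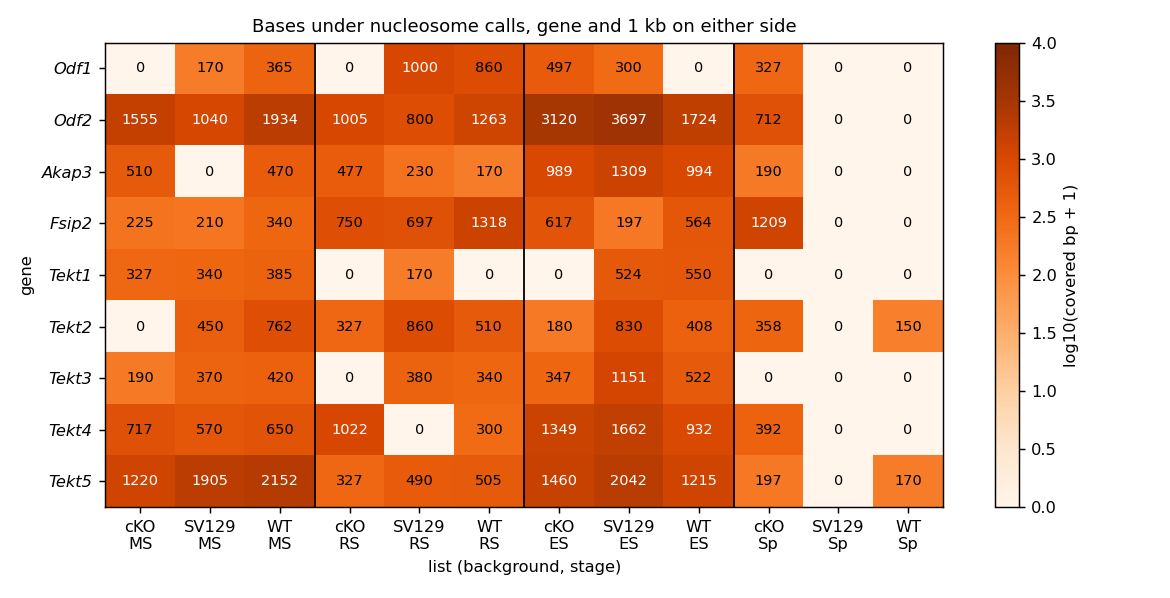
Bases under nucleosome calls in each gene and the 1 kb beyond either end, for the 9 sperm tail genes in each of the 12 nucleosome lists, 1 list per group; numbers are bp and the shade is log10(bp + 1). At Sp, 7 genes have calls in cKO, none in SV129 and 2 in WT.

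Odf1 and Tekt2 lacked calls in cKO MS, 2 of the 9 genes with calls in WT MS, as did 10.2% of all genes with a WT call. Odf1 and Tekt3 lacked calls in cKO RS, 2 of the 8 with calls in WT RS, as did 19.1% of all such genes. Odf1 had 0 bp under calls in cKO MS, 170 bp in SV129 MS and 365 bp in WT MS, and 0 bp in cKO RS, 1000 bp in SV129 RS and 860 bp in WT RS. Its calls were thus most extensive at RS, the stage of its open site, in both backgrounds with intact Gcn5. At ES it had 497 bp in cKO, 300 bp in SV129 and 0 bp in WT, and at Sp 327 bp in cKO and none in SV129 or WT.

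Odf2, with one of the longer windows of the 9 genes, had 3120 bp under calls in cKO ES, 3697 bp in SV129 ES and 1724 bp in WT ES. Per kb of window this was 69.7 bp in cKO ES, 82.6 bp in SV129 ES and 38.5 bp in WT ES, while Tekt2, with the shortest window, had 32.3 bp in cKO ES, 149 bp in SV129 ES and 73.3 bp in WT ES. Akap3, like Tekt3 and Tekt4, had more bases under calls at ES than at any other stage within each background. The ES nucleosome list was also the longest of each background. At ES Akap3 had 989 bp in cKO, 1309 bp in SV129 and 994 bp in WT, while at RS it had 477 bp in cKO, 230 bp in SV129 and 170 bp in WT. None of its calls in any list was centred within 1 kb of its start. Fsip2 differed from both, with 617 bp in cKO ES, 197 bp in SV129 ES and 564 bp in WT ES, and 750, 697 and 1318 bp at RS in cKO, SV129 and WT. Its highest value in cKO, 1209 bp, was at Sp.

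Among the tektins, Tekt5 had, at MS, 1220 bp under calls in cKO, 1905 bp in SV129 and 2152 bp in WT. Tekt1 had 327 bp in cKO MS, 340 bp in SV129 MS and 385 bp in WT MS, and at RS it had 0 bp in cKO, 170 bp in SV129 and 0 bp in WT. At ES it had 0 bp in cKO, 524 bp in SV129 and 550 bp in WT, and at Sp it had no call in any background. Tekt4 went the other way at RS, with 1022 bp in cKO, 0 bp in SV129 and 300 bp in WT. Tekt3 had 0 bp in cKO RS, 380 bp in SV129 RS and 340 bp in WT RS. The tektins therefore did not share a direction between the genotypes at RS.

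Around the starts, calls at MS and RS lay more often downstream than upstream. Within 1 kb of the first annotated start of the 8 genes with a known strand, the MS lists had 11 call centres upstream and 24 downstream in cKO, 11 and 29 in SV129, and 10 and 45 in WT. At RS the counts were 1 upstream and 13 downstream in cKO, 5 and 14 in SV129, and 5 and 19 in WT. The downstream share was thus 68.6% in cKO MS, 72.5% in SV129 MS and 81.8% in WT MS, where over 17492 genes with a promoter entry it was 60.4%, 54.2% and 57.6%. At RS it was 92.9% in cKO, 73.7% in SV129 and 79.2% in WT, beside 64.3%, 55.5% and 51.8% over those genes. At the later stages the direction varied between lists. The ES lists had 3 upstream and 11 downstream in cKO, 2 and 2 in SV129, and 0 and 7 in WT. The Sp lists had 5 and 1 in cKO, none in SV129, and 0 and 2 in WT. Over the 17492 genes the downstream share at ES was 60.7% in cKO, 59.9% in SV129 and 60.4% in WT. At Sp it was 54.5%, 54.4% and 56.9% in the same order. Calls overlap one another, so these are not counts of separate nucleosomes. Single genes also weigh heavily in these shares. Odf2 gave 17 of the 45 downstream centres in WT MS, and Tekt4 gave 5 of the 13 in cKO RS. In SV129 MS, Odf2 had 7 centres upstream and 5 downstream. At Tekt3 the nearest downstream centre was 62 bp from the start in SV129 MS and 87 bp in WT MS, and 52 bp and 82 bp at RS in the same backgrounds. cKO MS had 0 downstream centres there and 3 upstream. At Fsip2 the nearest downstream centre lay 82 bp from the start in cKO MS, 97 bp in SV129 MS and 79 bp in WT MS. Of the call centres near the starts, 1 in cKO MS, 11 in SV129 MS and 19 in WT MS lay inside a subnucleosome peak of the same group, so at these genes the classes are not exclusive. At Tekt5 no list had a call upstream of the start within 1 kb.

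**Figure D5:**
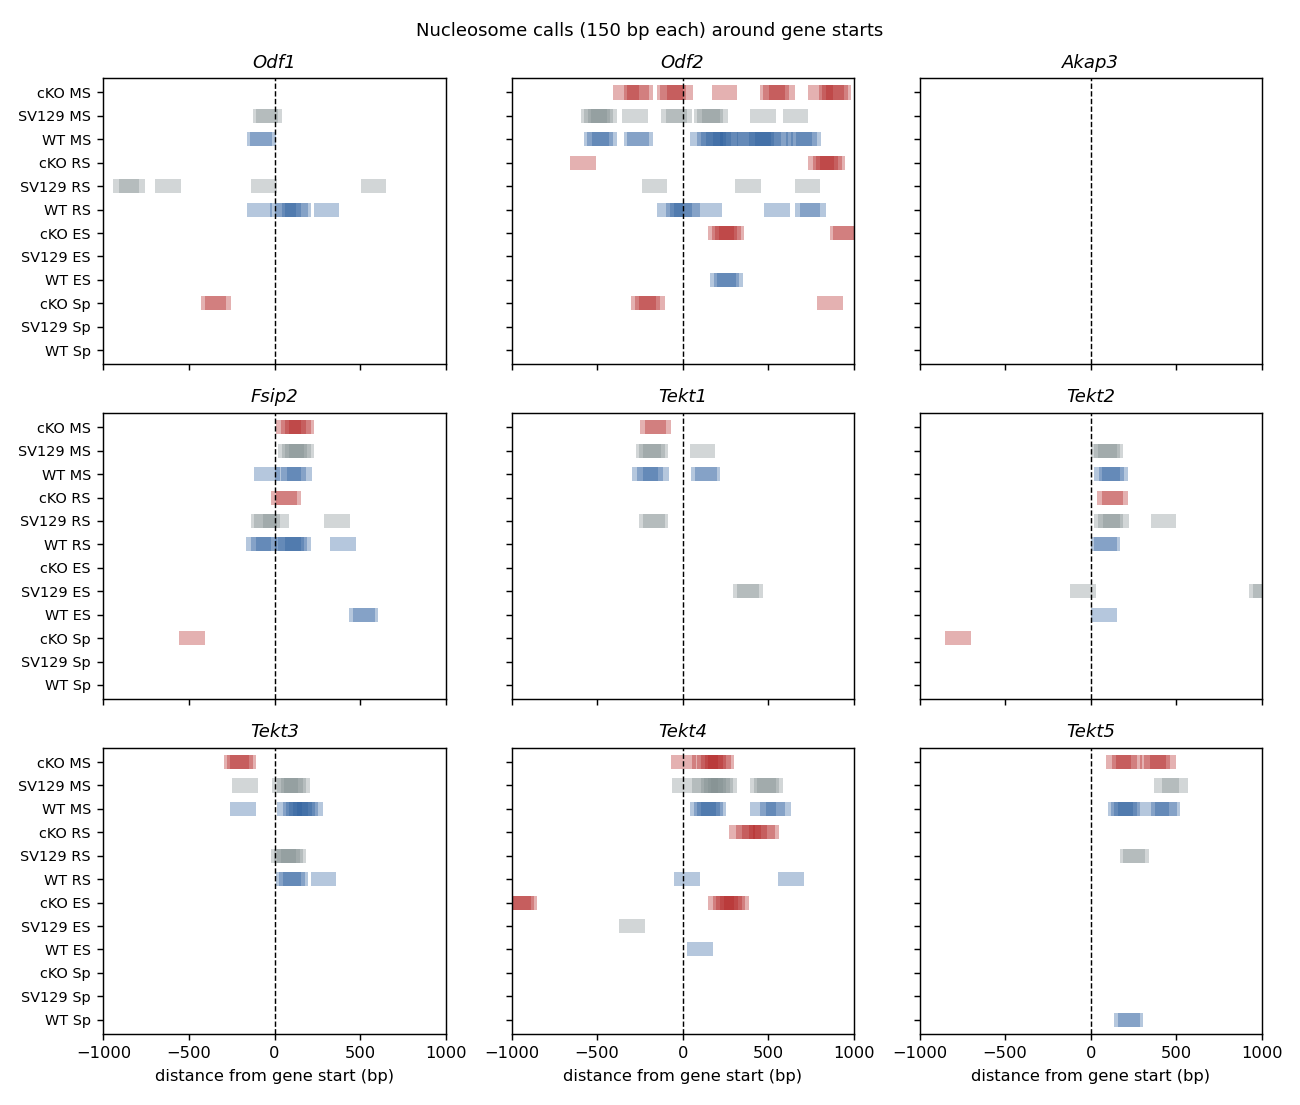
Nucleosome calls (bars of 150 bp, darker where they overlap) within 1000 bp of the start of each of the 9 genes, in bp in the direction of transcription (from the lower-coordinate end for Odf1), by stage and background. Over the MS and RS lists together, more calls lie downstream of the start than upstream at each gene with calls, except Odf1 and Tekt1. The strand of Odf1 was not matched. Akap3 has no call in any list, SV129 Sp has none and WT Sp has 2.

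The positions of the calls at these genes were shared between backgrounds more at MS than at RS, and more at RS than at ES. At the 9 genes, cKO MS and WT MS shared 2411 bp, 50.8% of the cKO and 32.2% of the WT bases, and SV129 MS and WT MS shared 3949 bp, 78.1% of the SV129 and 52.8% of the WT bases. At RS, cKO and WT shared 545 bp, 13.9% of the cKO and 10.3% of the WT bases, and SV129 and WT shared 2097 bp, 45.3% and 39.8%. Over all genes, cKO and WT shared 32.7% of the cKO and 28.3% of the WT bases at MS, and 13.6% and 10.6% at RS. SV129 and WT shared 60.9% of the SV129 and 35.4% of the WT bases over all genes at MS, and 33.9% and 35.5% at RS. At ES the overlap was low also between the backgrounds with intact Gcn5: SV129 and WT shared 411 bp, 3.51% of the SV129 and 5.95% of the WT bases, and cKO and WT shared 385 bp, 4.50% and 5.57%. These shares at ES were close to those over all genes, which were 5.52% and 5.80% for SV129 and WT and 5.15% and 4.94% for cKO and WT.

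In mature sperm, the cKO list had calls at 5 of the 7 genes without a WT Sp call, where 69.5% of all such genes gained one. The covered bases in cKO Sp were 1209 bp at Fsip2, 712 bp at Odf2, 392 bp at Tekt4, 358 bp at Tekt2, 327 bp at Odf1, 197 bp at Tekt5 and 190 bp at Akap3. WT Sp had 150 bp at Tekt2 and 170 bp at Tekt5, and none of these bases was shared with cKO Sp. Of the bases under cKO Sp calls at the 9 genes, 9.66% were also under cKO MS calls, 8.86% under cKO RS calls and 7.44% under cKO ES calls, beside 8.21%, 3.80% and 4.86% over all genes.

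Other sperm tail genes were examined as a list of 32, of which 30 were in the gene table (Tektip1 and Tektl1 were not used). It holds further outer dense fibre, fibrous sheath, annulus, axoneme and mitochondrial capsule genes. At MS, 17 of the 30 had a subnucleosome peak in cKO, 24 in SV129 and 24 in WT, and at RS 6 in cKO, 23 in SV129 and 25 in WT. At ES none had one in any background, and at Sp 2 had one in cKO, 6 in SV129 and 1 in WT. These counts stand beside the shares of all genes given above. Of the genes with a WT peak, 7 of 24 lacked one in cKO MS and 19 of 25 in cKO RS. These counts were close to the shares among all genes with a WT peak, 29.6% at MS and 76.7% at RS. The 6 that had one in cKO RS were Cabyr, Gapdhs, Ldhc, Smcp, Spag6l and Spata6, which include the sperm glycolytic enzymes Gapdhs and Ldhc; these were listed after their values were seen. Nucleosome calls in Sp were at 23 of the 30 in cKO, 7 in SV129 and 2 in WT.

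In that list, Akap4, the main fibrous sheath protein and partner of Akap3, had 0 bp under peaks in cKO RS, 662 bp in SV129 RS and 1055 bp in WT RS, and 0, 201 and 170 bp at MS. Unlike Akap3, it thus had a peak at MS in mice with intact Gcn5. Fsip1, a fibrous sheath interacting protein, had 0 bp in cKO RS, 344 bp in SV129 RS and 1013 bp in WT RS. The axonemal central apparatus genes Spag16 and Hydin had 0 bp in cKO RS, 405 and 344 bp in SV129 RS and 1648 and 739 bp in WT RS. Septin7, a septin of the annulus, and Tsga10 were also at 0 bp in cKO RS, with 517 and 553 bp in SV129 RS and 674 and 713 bp in WT RS. In SV129 Sp, Tsga10 had 436 bp and Septin7 311 bp. Gapdhs, with 0 bp in cKO Sp, 165 bp in SV129 Sp and 149 bp in WT Sp, was the only gene of the 30 with a WT Sp peak. Spag17 had 98 bp in cKO Sp, 132 bp in SV129 Sp and 0 bp in WT Sp, and Ropn1l and Cabyr had 0 bp in cKO Sp, 77 and 75 bp in SV129 Sp and 0 bp in WT Sp.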

How the data were processed

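ATAC-seq was run on 34 libraries in 12 groups. Per group, the authors deposited subnucleosome peaks and nucleosome calls as 1 list each, on build GRCm38 (mm10). MACS2 2.1.0.20140616 and STAR 2.5.2a are listed, with no role, in the submitters' processing notes. The sources used here do not say how fragments were divided or replicates combined. The score that the authors deposited has no stated meaning; it was used to rank WT peaks only within a list, and the SV129 peak lists have none. Depth is unknown, so no interval on a count can be given.

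Gene spans and starts came from RefSeq GRCm38.p6. Promoter entries matched 8 of the 9 genes (Odf1 was not matched). Intervals counted when they overlapped the gene or the 1000 bp beyond either end by 1 bp; overlapping intervals were merged before bases were summed. All 9 genes are described. Of the 32 further genes, those named are the 6 with the most bases under WT RS peaks and the next 4 by SV129 Sp, plus, chosen after their values were seen, those with a cKO RS peak; for likeness, the closest gene by Pearson correlation over 24 lists was named. Members, lists and motifs were chosen with earlier results of these data known, and the ranking by score, the shared bases and the sides of starts over all genes were added after the lists were seen. Alternatives were other windows, interval centres, and lists shortened by score. With 1 list per group no test was possible. Counting was tested on simulated intervals, with Python 3.11.15, numpy 2.4.6, pandas 2.3.3 and matplotlib 3.10.9.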

Additional observations from a re-analysis of the deposited data

Results flagged for a closer look

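The number of sperm tail genes with a nucleosome call, cKO minus WT, changed sign between stages. It was -2 at MS and -2 at RS, 0 at ES and 5 at Sp. Over all genes, the share with a call was 73.2% in cKO and 75.1% in WT at MS, 63.9% and 63.1% at RS, 78.5% and 80.3% at ES, and 71.7% and 8.79% at Sp, so the difference at Sp is one that all genes show. These are differences between single lists, the change between stages was not tested, and the Sp lists hold 347951 calls in cKO and 8628 in WT.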

How the results depend on the processing

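Of 164 values recomputed under other settings, 156 stayed close to the reported value, which for counts meant within a factor of 1.5. Most of the values are counts of genes, which cannot change direction. None of the differences in covered bases, taken at MS and RS, changed direction. In the main window, all bases under cKO MS peaks were also under WT MS peaks, and cKO RS had no peak. A narrower window thus could not turn a difference positive, so this result says little. Many counts, such as those of peaks at ES, held no gene at any setting and could not fall, so their staying the same says little. Counting only within 1 kb on either side of a gene's ends left 2 of the 9 genes with a cKO MS peak, 3 with a cKO RS nucleosome call and 5 with a cKO ES call, against 4, 6 and 8. The shares of all genes fell as well, to 35.8%, 37.9% and 51.1%, against 44.9%, 63.9% and 78.5%. In the upper 50% of the cKO MS list by score, 1 gene had a peak. Without the calls at the most common score, 1 gene had a WT Sp call, against 2. With the WT RS list shortened by score to the length of the cKO list, 1 gene had a WT peak and none in cKO, against 9. For the settings that use the score, the share of all genes was not computed. With 500 bp beyond either end, the Tekt2 difference in covered bases, cKO minus WT, was -327 at MS and -381 at RS, since the Adprhl2 site then falls partly outside. The causes of the other changes were not tested. The upper-score setting was not run for SV129, whose peak lists carry no score. No paired analysis was possible because each group has 1 list, and for the same reason no replicate could be left out. Depth is unknown, so an absent peak was not called and cannot be read as closed DNA.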

Other observations

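For each of the 7 sperm tail genes with a subnucleosome peak in 3 or more lists, the gene with the most similar log2(covered bp + 1) over the 24 lists was found, leaving out overlapping neighbours. The pairs were Odf2 with Plagl2 (Pearson r = 0.997), Fsip2 with Snap25 (0.994), Tekt1 with Pfdn6 (0.961), Tekt2 with Vezf1 (0.941), Tekt3 with Eef1akmt1 (0.995), Tekt4 with Zfp810 (0.989) and Tekt5 with Cs (0.993). Odf2 had 169 genes and Fsip2 391 genes within 0.02 of that r, so the nearest gene is one of many there, while Tekt1 had 1 and Tekt4 had 4. The points share lists, and every correlation carries their lengths; no p was computed.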
